A study of Homo sapiens with 4 samples.

Results

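Histone genes were examined in the colorectal cancer line HCT116 with and without knockout of C14orf159. They were taken as all gene symbols that start with HIST1H, HIST2H, HIST3H, HIST4H, H1F, H2AF or H3F3, which gave 91 of the 26255 symbols in the deposited tables. Of these, 73 carry HIST symbols and are here called clustered, by symbol and not by location (70 protein-coding genes and 3 pseudogenes). The other 18 are here called variants: 16 protein-coding genes, the pseudogene H3F3AP4 and the antisense RNA gene H1FX-AS1. Clustered genes lie on chromosome 6 (56 genes), chromosome 1 (16) and chromosome 12 (1).

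The study compared 2 libraries of control cells, labelled as carrying an empty vector and called EV control 1 and 2, with 2 libraries of C14orf159 knockout cells, called KO 1 and KO 2. The column headers name the controls AAVS1, a locus commonly used as a harmless target, and the knockouts sgDGLUCY, after the current symbol of C14orf159, a gene for a protein of the mitochondrial matrix. The series text ties the experiment to migration, invasion and spheroid growth. The labels used here do not state whether replicates are separate cultures or whether the knockout cells are a clone, so p-values refer to the scatter of these 4 libraries only, which could be technical. All 4 libraries were made from poly(A)-selected RNA.

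C14orf159 itself stood at 16.2 and 16.4 FPKM (fragments normalised for transcript length and for library depth) in the controls, 2.52 in KO 1 and 10.8 in KO 2, so the library labelled KO 2 kept 66.2% of the control level. KO 1 and KO 2 are named below as the labels have them, and values are given for each. Epithelial markers of the colon were present (7 of 9 reached 1 FPKM, with summed levels from 3351 to 3716 FPKM), CDX1 being listed at 0. No marker of fibroblasts (0 of 6) or endothelium (0 of 4) reached 1 FPKM, and of 5 leukocyte markers CD68 alone did. COL1A2, DCN, LUM, PTPRC and CD3E were listed at 0. Relative to EV control 1, 1 fragment was worth 0.974 as much in the other control and 1.06 and 1.03 in KO 1 and KO 2, so the libraries were of similar depth.

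Histones package DNA into nucleosomes. The clustered genes supply the bulk of core histones H2A, H2B, H3 and H4 and of linker histone H1 while DNA is replicated, and their main transcripts end in a short stem-loop in place of a poly(A) tail. This stem-loop is bound by SLBP, which guides the processing, export, translation and decay of the message. Variant genes are mostly transcribed throughout the cell cycle, carry poly(A) tails like other mRNAs, and replace the bulk histones at particular places in chromatin. A poly(A)-selected library therefore holds in full those variant mRNAs that are always tailed, but only those clustered transcripts that carry a tail.

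To show what sets the clustered transcripts apart, the histone stem-loop was searched in GENCODE 29 transcripts on the sense strand. It was found in 39 of 57133 gene names, and 33 of these are among the 91 genes: 32 clustered genes and the variant H2AFX. Many clustered gene models in that release stop at the end of the coding part, so a missing match says only that the annotated transcript does not hold these letters. The sequences below are from genes whose levels are described further on, with the 16 bases of the stem-loop in capitals, flanked by 5 bases on each side, and with positions in GRCh38.
HIST1H2AC, chr6:26124664-26124689, plus strand: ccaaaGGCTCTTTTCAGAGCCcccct
HIST1H2BD, chr6:26158582-26158607, plus strand: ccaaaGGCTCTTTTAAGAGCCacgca
HIST3H2A, chr1:228457364-228457389, minus strand: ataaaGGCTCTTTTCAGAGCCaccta
HIST1H3H, chr6:27810511-27810536, plus strand: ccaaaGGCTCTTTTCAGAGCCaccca
HIST1H4E, chr6:26204996-26205021, plus strand: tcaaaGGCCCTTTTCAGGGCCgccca
H2AFX, chr11:119094893-119094918, minus strand: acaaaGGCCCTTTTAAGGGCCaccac
The annotated transcripts run on past this element by 1128 bases in HIST1H2AC, 39 in HIST1H2BD, 390 in HIST3H2A, 769 in HIST1H3H, 1022 in HIST1H4E and 1044 in H2AFX, and each holds a poly(A) signal (AATAAA or ATTAAA) there. Of the other tested clustered genes with the element, HIST1H2AG and HIST2H2BC held such a signal after it, whereas HIST1H2BC and HIST1H2BN did not. Forms that end at the stem-loop carry no tail and escape poly(A) selection.

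Promoters were compared as well, after the levels of the clustered genes had been seen. Whether promoter motifs go with the differences between KO and control libraries was not tested. RefSeq promoter windows (GRCh38.p14, 250 bases before the start) were matched to 65 of the 73 clustered genes and 14 of the 18 variants. The octamer ATTTGCAT, the site of the factor POU2F1 (Oct-1) known from H2B promoters, stood on either strand in 26 of 65 clustered windows (40%), against 1.66% of all 27305 windows. It was in 14 of 18 clustered H2B windows and 11 of 16 H2A windows, but in 1 of 12 H3 windows, 0 of 13 H4 windows and 0 of 6 H1 windows. A TATA box (TATAAA, either strand) was in 66.2% of clustered windows, 28.6% of variant windows and 11.1% of all windows. The short motif CCAAT, on either strand, was in 84.6%, 78.6% and 33% in the same order. The windows of the 5 clustered genes with the highest levels are printed below, with these 3 motifs in capitals on either strand; copies that overlap run together.
HIST1H1C, chr6:26056471-26056720, minus strand: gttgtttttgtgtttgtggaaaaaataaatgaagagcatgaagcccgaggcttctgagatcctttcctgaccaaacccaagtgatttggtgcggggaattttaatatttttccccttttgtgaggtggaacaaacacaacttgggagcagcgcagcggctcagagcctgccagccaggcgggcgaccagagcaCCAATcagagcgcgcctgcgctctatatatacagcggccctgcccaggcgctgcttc
HIST1H2AC, chr6:26123922-26124171, plus strand: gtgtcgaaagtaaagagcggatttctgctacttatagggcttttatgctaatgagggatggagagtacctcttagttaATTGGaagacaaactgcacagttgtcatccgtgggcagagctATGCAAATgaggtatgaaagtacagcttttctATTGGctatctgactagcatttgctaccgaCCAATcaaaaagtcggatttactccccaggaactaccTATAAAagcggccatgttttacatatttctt
HIST1H2BD, chr6:26157871-26158120, plus strand: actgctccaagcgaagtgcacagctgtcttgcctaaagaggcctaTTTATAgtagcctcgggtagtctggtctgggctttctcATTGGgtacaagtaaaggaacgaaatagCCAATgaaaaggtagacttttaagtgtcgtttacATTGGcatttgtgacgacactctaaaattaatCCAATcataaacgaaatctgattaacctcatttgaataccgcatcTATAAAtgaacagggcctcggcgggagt
HIST1H2BK, chr6:27146859-27147108, minus strand: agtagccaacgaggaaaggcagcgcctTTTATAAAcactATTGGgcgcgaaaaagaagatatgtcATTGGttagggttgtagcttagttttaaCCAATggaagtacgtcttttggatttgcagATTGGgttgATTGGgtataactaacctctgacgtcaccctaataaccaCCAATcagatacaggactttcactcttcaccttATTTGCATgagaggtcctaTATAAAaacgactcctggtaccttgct
HIST3H2A, chr1:228457874-228458123, minus strand: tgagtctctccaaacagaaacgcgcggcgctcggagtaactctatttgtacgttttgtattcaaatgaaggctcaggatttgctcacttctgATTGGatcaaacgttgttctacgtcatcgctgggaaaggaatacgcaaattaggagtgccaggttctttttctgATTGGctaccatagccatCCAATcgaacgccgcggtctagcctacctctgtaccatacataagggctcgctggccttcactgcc
HIST1H2AC and HIST1H2BK each hold 1 octamer, whereas these letters are not in the other 3 windows. HIST1H2BK holds 6 CCAAT motifs and HIST1H1C a single one. The deposited values rest on another build (hg19), so these windows serve as sequence alone.

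Levels of the clustered genes were low. In all 4 libraries 26 of the 73 were listed at 0, and 15 reached the minimum for testing of 1 FPKM in at least 2 libraries. Of the tested genes 12 lie on chromosome 6 and 3 on chromosome 1. HIST1H2BK, HIST1H1C, HIST1H2BD, HIST3H2A and HIST1H2AC had a mean of at least 5 FPKM and made up 73.0% to 74.7% of the clustered FPKM in each library. Genes with an annotated transcript or gene span of 800 bases or more, a limit chosen after the values were seen, had a median of 0.469 FPKM (30 genes, 12 of them tested), against 0.0992 for the other 43 (3 tested).

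Linker histone H1 is represented among the tested clustered genes by HIST1H1C, a somatic H1 that binds DNA between nucleosomes. It stood at 27.5 and 22.4 FPKM in EV control 1 and 2, and at 12.2 and 15.1 in KO 1 and KO 2. Both KO libraries lay below both controls, at 48.9% and 60.5% of the control mean. The difference on the log2(FPKM + 1) scale, which understates changes of low genes, was -0.83 (SE 0.149, limma-trend adjusted p = 0.183). HIST1H1E, another somatic H1, was above 1 FPKM in KO 1 alone. Its FPKM came in steps, and the smallest whole numbers of fragments that fit were 8 and 3 in the controls, 8 in KO 1 and 4 in KO 2. Fragment numbers below are listed in this order and are such smallest numbers, so the true counts may be a multiple of them. HIST1H1A and HIST1H1B were listed at 0.

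For H2A, HIST3H2A, from the small cluster on distal chromosome 1, had the largest difference of the tested histone genes on this scale. With a pseudocount of 0.1 in place of 1, HIST1H2BN (-1.76) and HIST1H2BJ (-1.17) lay lower than HIST3H2A (-1.08). It stood at 16.4 and 14.1 FPKM in the controls, 8.08 in KO 1 and 6.38 in KO 2. The KO libraries thus had 52.8% and 41.7% of the control mean, a log2 difference of -0.99 (SE 0.141, limma-trend adjusted p = 0.140). HIST1H2AC had 6.29 and 8.69 FPKM in the controls, 4.30 in KO 1 and 3.13 in KO 2, again with no overlap (-0.84, SE 0.197, limma-trend adjusted p = 0.208). HIST1H2AG, HIST1H2AM and HIST2H2AC, which also encode bulk H2A, ranged from 0.253 to 2.70 FPKM and their groups overlapped.

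H2B genes made up the largest share of clustered FPKM. HIST1H2BK stood at 35.5 and 39.4 FPKM in the controls, 25.9 in KO 1 and 23.1 in KO 2, or 69.2% and 61.6% of the control mean (log2 difference -0.59, SE 0.101, limma-trend adjusted p = 0.174). Its value is uncertain in origin, because 74.1% of the 50-base stretches of its annotated transcript also occur in other genes, most often in the copy H2BFS. HIST1H2BD had 16.7 and 16.2 FPKM in the controls, 14.1 in KO 1 and 14.6 in KO 2, the smallest difference of the 5 leading genes (-0.19, SE 0.079, limma-trend adjusted p = 0.331). Both KO libraries lay below both controls in these H2B genes too.

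Among the lower H2B genes, HIST1H2BJ passed the filter through the controls alone, so its difference was in part selected. It had 2.01 and 1.22 FPKM there, 0.799 in KO 1 and 0.517 in KO 2, or 8, 5, 3 and 2 fragments as the smallest fit. The pseudogene HIST2H2BC had 6.24 and 5.36 FPKM in the controls, 2.53 in KO 1 and 4.34 in KO 2 (34, 30, 13 and 23 fragments). In each of these genes both KO libraries lay below both controls, KO 1 lowest for HIST2H2BC and KO 2 for HIST1H2BJ. HIST1H2BC and HIST1H2BN lay between 0 and 2.03 FPKM. HIST1H2BN had 5, 4, 5 and 0 fragments, so KO 2 alone set its difference.

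H3 and H4 are represented by 3 tested clustered genes, all under 3 FPKM. HIST1H3E, which encodes bulk H3, had 2.70 and 2.63 FPKM in the controls, 1.43 in KO 1 and 1.11 in KO 2. The smallest fragment numbers were 10, 10, 5 and 4, and the groups did not overlap. The log2 difference was -0.69 (SE 0.134, limma-trend adjusted p = 0.183). HIST1H3H (3, 11, 2 and 6 fragments) and the H4 gene HIST1H4E (3, 3, 1 and 3) overlapped between the groups. Intervals for counting error are not given, since they need the true counts.

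**Figure D1:**
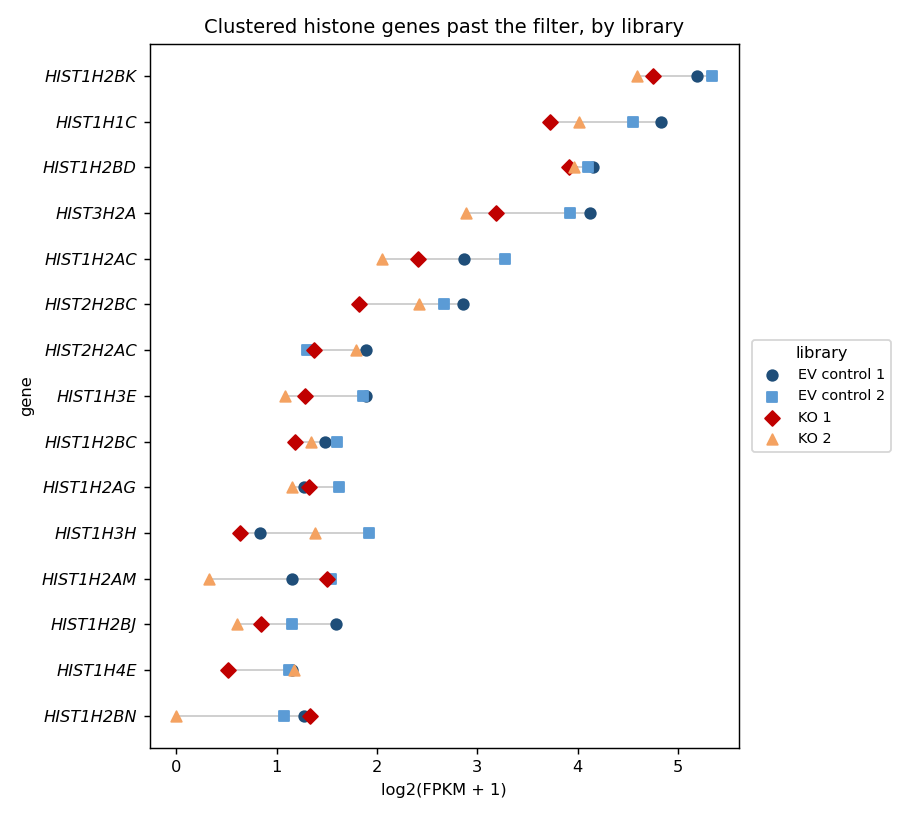
Levels of the 15 tested clustered genes on the log2(FPKM + 1) scale, with 1 mark for each library and a grey line over their range. Both KO libraries lie left of both controls in 9 genes, among them the 5 with the highest levels.

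Across the clustered arm, 0 of 15 tested genes passed in either direction in limma-trend (background 0.11% of 12701 tested genes, with 0.0551% lower; smallest adjusted p = 0.140), and 0 passed in limma without the trend. Unadjusted p-values were under 0.05 for 7 lower and 0 higher of the 15, against 7.22% and 9.23% of all tested genes. Both KO libraries lay below both controls in 9 of the 15 and above them in 0, where the background was 25.6% and 26.5%. The difference was below 0 in all 15 genes (49.5% of all tested genes), from -0.99 in HIST3H2A to -0.01 in HIST2H2AC. With KO 1 alone 13 of 15 lay below the control mean (background 50.8%), and with KO 2 alone 12 of 15 (47.7%). The median log2 difference was -0.51 for the clustered genes and 0.00 for all tested genes. The filter admits a gene through its higher group, so these shares are descriptions of the genes that passed.

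Taken singly, the KO libraries gave clustered medians of -0.52 (KO 1) and -0.68 (KO 2). These comparisons use the same controls, so their likeness is partly built in. In KO 1, 7 clustered genes were at least 1.5-fold lower on the log2(FPKM + 1) scale (2.32% of all tested genes) and in KO 2, 8 were (2.46%). These backgrounds, like those above, were not matched for level, and 10 of the 15 clustered genes had a mean under 5 FPKM. The order of genes differed: HIST2H2BC and HIST1H1C lay lowest in KO 1 (-0.94 and -0.97), HIST1H2BN and HIST3H2A in KO 2 (-1.18 and -1.14). HIST1H2AM had 1.23 and 1.92 FPKM in the controls, 1.82 in KO 1 and 0.253 in KO 2, so that only KO 2 lay low. Its value is uncertain in origin too, as 86.3% of its 50-base stretches occur in other genes, most often in HIST1H3J. For HIST1H3H and HIST1H4E KO 1 was the lowest library and KO 2 lay within or above the controls.

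**Figure D2:**
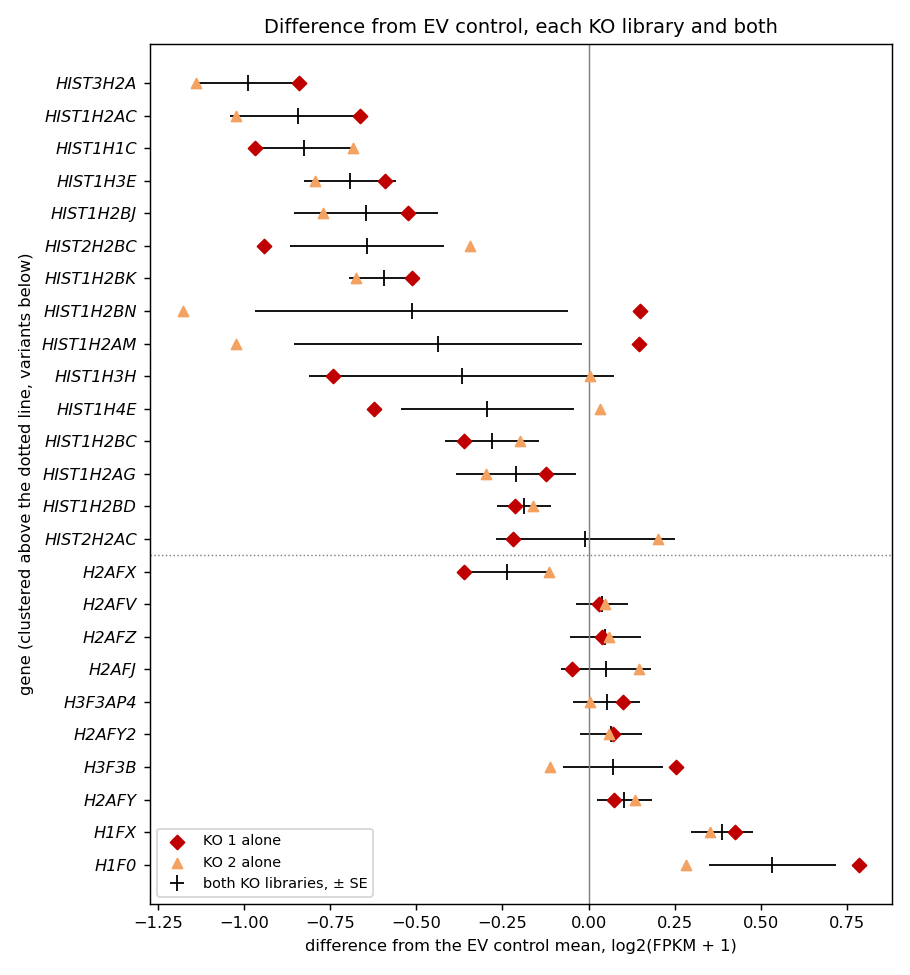
Difference from the EV control mean on the log2(FPKM + 1) scale for the 25 tested histone genes: black bars are the limma estimate ± SE over both KO libraries, diamonds KO 1 alone and triangles KO 2 alone. Clustered genes (above the dotted line) run from -0.99 to -0.01, and 9 of the 10 variants lie above 0 in the estimate over both libraries.

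The genes under the filter were read as fragments, since FPKM of a short transcript comes in steps of 1 fragment. For 39 clustered genes all 4 values were whole multiples of 1 step, within 0.03 fragments, and the step was worth 0.119 to 0.845 FPKM. Of these, 30 were above 0 in at least 2 libraries. In the others a single value above 0 fits as 1 step by construction, so their fit shows nothing. A step may hold more than 1 fragment: that of HIST1H4I (0.845 FPKM) was far larger than that of HIST1H4D (0.43), another H4 gene. Summed over the 39 genes, the smallest numbers came to 137 and 130 fragments in the controls, 81 in KO 1 and 78 in KO 2, or 137, 126.6, 85.9 and 80.3 at the depth of EV control 1. Without HIST2H2BC, the gene with the largest numbers, the sums were 103, 100, 68 and 55. The 29 of them that were not tested summed to 48, 38, 30 and 21, so the sums of the KO libraries were lower there as well. No test was made of these sums.

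Single genes at this level say little. HIST1H4D fitted 1 fragment in each library, and its FPKM was nonetheless higher in both KO libraries than in both controls (0.456 and 0.443 against 0.430 and 0.419), since equal fragment numbers give a higher FPKM in a shallower library. HIST1H2BE, with 0, 0, 1 and 2 fragments, was the other untested clustered gene with both KO libraries above the controls. In the opposite order were 9 untested clustered genes, among them the H4 genes HIST1H4B, HIST1H4C, HIST1H4I and HIST4H4, all under 0.9 FPKM. HIST1H4I and HIST4H4 each fitted 1, 1, 0 and 0 fragments, so single fragments set their order. The share of either order among all untested genes was not computed, so these counts have no background. Above 1 FPKM in a single library were HIST1H2AH, HIST1H2AJ, HIST1H2BO, HIST2H2BE and HIST3H2BB (EV control 1), HIST1H3B (EV control 2) and HIST1H1E (KO 1). HIST3H2BB, the neighbour of HIST3H2A, had 6, 2, 1 and 1 fragments.

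**Figure D3:**
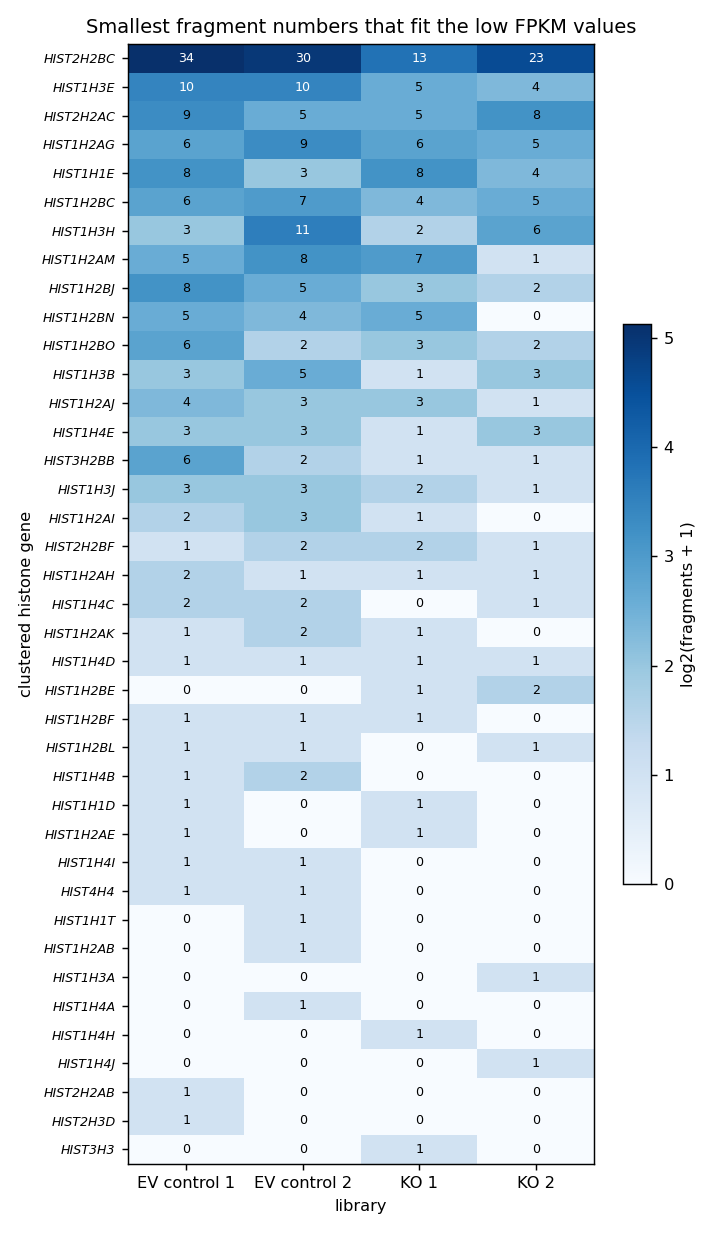
Smallest fragment numbers that fit the FPKM of 39 clustered genes in each library, with the number printed in each cell and the colour on a log2(fragments + 1) scale. Column sums are 137, 130, 81 and 78, and HIST2H2BC alone reaches 34. Genes above 0 in a single library fit as 1 fragment by construction.

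Several clustered genes listed at 0 have near-identical copies. HIST2H2AA3 and HIST2H2AA4, HIST2H3A and HIST2H3C, and HIST2H4A and HIST2H4B are pairs of copies that share 97.1% to 100% of their 50-base stretches with another gene, and all 6 were listed at 0. HIST1H4K, which shares 100% with HIST1H4J, was listed at 0 as well. The sources used here do not say how reads with several matches were treated.

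By family, clustered FPKM summed over tested and untested genes lay below both controls in both KO libraries for each of the 5 histones. H1 had 28.6 and 22.9 FPKM in the controls, 13.4 in KO 1 and 15.6 in KO 2. Nearly all of this was HIST1H1C (27.5 and 22.4, then 12.2 and 15.1). HIST1H1D, HIST1H1E and HIST1H1T, the other H1 genes above 0, overlapped between the groups. H2A had 32.4 and 31.2 in the controls, 19.6 in KO 1 and 14.3 in KO 2, whereas H2B had 69.2 and 68.3, then 48.8 and 46.3. H2B thus kept the largest share of its control level (71.0% in KO 1 and 67.3% in KO 2). H3 (46.6% and 63.8%) and H4 (29.99% and 58.0%) had the lowest summed levels. The H4 sum of KO 1, 1.32 FPKM, came from HIST1H4D, HIST1H4E and HIST1H4H, each fitted by 1 fragment there. The sum over all 73 genes was 140.4 and 135.4 FPKM in the controls, 86.4 in KO 1 and 83.3 in KO 2, or 62.7% and 60.4% of the control mean.

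**Figure D4:**
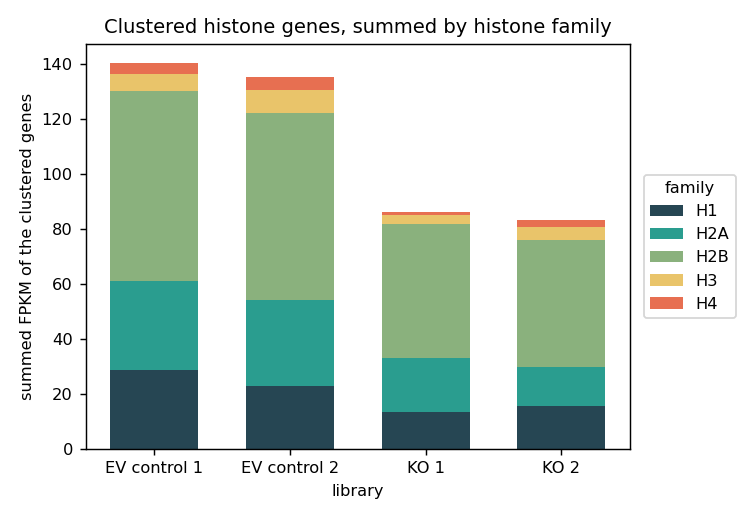
Summed FPKM of the 73 clustered genes in each library, stacked by histone family. The controls reach 140.4 and 135.4 FPKM and the KO libraries 86.4 and 83.3, with H2B the largest part in each.

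The variants were far more abundant per length, as 9 of 18 had a mean of at least 5 FPKM, and 10 were tested. None passed in limma-trend over all genes (higher: background 0.0551%) or in limma without the trend. Unadjusted, 2 of the 10 were higher with p under 0.05 and 0 lower (background 9.23% and 7.22%). Both KO libraries lay above both controls in 6 of the 10 (background 26.5%) and below them in 1 (25.6%). The median log2 difference was 0.06, with 0.07 in KO 1 and 0.06 in KO 2. At least 1.5-fold higher was 1 variant, H1F0, in KO 1 (background 3.49%) and 0 in KO 2 (4.38%).

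Both variants at an unadjusted p under 0.05 encode linker histones. H1F0, a replacement H1 known to build up in cells that divide slowly or differentiate, stood at 353.6 and 344.7 FPKM in the controls, 602 in KO 1 and 425.2 in KO 2. The KO libraries had 172.4% and 121.8% of the control mean, so KO 1 carried most of the difference (log2 0.53, SE 0.185, limma-trend adjusted p = 0.280). H1FX, another H1 outside the clusters, had 59.0 and 53.1 FPKM in the controls, 75.4 in KO 1 and 71.7 in KO 2. Its difference was nearly equal in both libraries (134.6% and 128%; log2 0.39, SE 0.090, limma-trend adjusted p = 0.208). These linker genes lay higher in both KO libraries while HIST1H1C lay lower. The antisense gene H1FX-AS1 had 9, 10, 19 and 10 fragments; the sources used here do not say whether counting used strand, so its reads and those of H1FX may mix.

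H2A variants were close to the control level. H2AFZ, which encodes the main H2A.Z protein found at promoters, was the most abundant histone gene, with 794.2 and 797.2 FPKM in the controls, 817.5 in KO 1 and 828.7 in KO 2. H2AFV, the second H2A.Z gene, had 93.1 and 93.9 FPKM in the controls, 95.4 in KO 1 and 96.7 in KO 2. Both KO libraries lay slightly above both controls in each gene (at 102.1% to 104.1% of the control mean), with limma-trend adjusted p of 0.834 and 0.815. Quantile normalization turned the sign for H2AFZ (-0.0368). H2AFY, which encodes macroH2A with its large extra domain, had 126.0 and 124.3 FPKM in the controls, 131.8 in KO 1 and 137.4 in KO 2. Its paralog H2AFY2 had 29.8 and 26.5, then 29.6 and 29.3, and overlapped. H2AFJ lay between 2.70 and 3.32 FPKM in all libraries.

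H2AFX, whose protein is phosphorylated beside DNA breaks, was the variant that lay lower in the KO libraries. It stood at 125.1 and 113.6 FPKM in the controls, 92.5 in KO 1 and 110.1 in KO 2, or 77.5% and 92.3% of the control mean (log2 -0.24, SE 0.119, limma-trend adjusted p = 0.385). It is also the variant in which the stem-loop printed above was found, so any forms that end there would be missed. KO 2 lay close to EV control 2, so the groups were barely apart.

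Replacement H3, which is placed into chromatin outside replication, is encoded by H3F3A and H3F3B. H3F3B had 300.8 and 302.8 FPKM in the controls, 360.2 in KO 1 and 279.0 in KO 2, so the KO libraries lay on either side of the controls. H3F3A was listed under 0.01 FPKM in 3 libraries and at 7.73 in KO 2, whereas its pseudogene H3F3AP4 stood at 483.1, 481.3, 516.7 and 483.9. All 50-base stretches of the annotated H3F3AP4 transcript (100%) occur in other genes, mostly in H3F3A. Of those of the longer H3F3A transcripts, 11.7% occur in other genes, most often in H3F3AP4. How shared reads were treated is not stated in the sources used here, so these values cannot be assigned to either gene. With both summed, the log2 difference was 0.06 (limma-trend adjusted p = 0.758). Of the other untested variants, H3F3C had 3, 6, 1 and 8 fragments, H1FNT was above 0 in KO 1 alone, and H1FOO, H2AFB1, H2AFB2 and H2AFB3 were listed at 0.

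**Figure D5:**
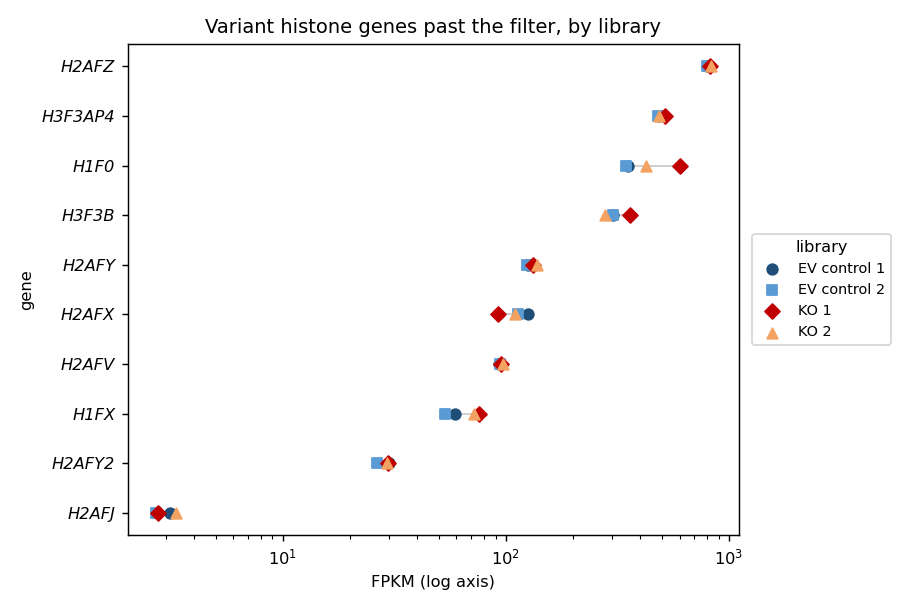
FPKM of the 10 tested variants on a log axis, with 1 mark for each library. H1F0 and H1FX lie higher and H2AFX lower in both KO libraries, while the marks of H2AFZ, H2AFV and H3F3AP4 nearly coincide.

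Clustered and variant medians thus lay on opposite sides of 0, with a difference of -0.57 (clustered minus variant). No test was made of it. CENPA, the centromeric H3 outside the symbol rule, had 15.1 and 13.8 FPKM in the controls, 16.9 in KO 1 and 17.6 in KO 2 (limma-trend adjusted p = 0.282).

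Genes that make and mature histone messages were compared next. Of 22 such genes tested, 0 passed in limma-trend and the median log2 difference was -0.09, or -0.14 with KO 1 alone and -0.05 with KO 2 alone. Without adjustment, 1 gene was higher and 2 were lower (p under 0.05), near or below the background of 9.23% and 7.22%. The difference was below 0 in 16 of the 22 (49.5% of all tested genes). In 10 both KO libraries lay below both controls (background 25.6%), and in 3 above them (26.5%). SLBP, which binds the stem-loop, had 66.0 and 66.3 FPKM in the controls, 60.4 in KO 1 and 71.2 in KO 2. NPAT, the coactivator that couples clustered gene transcription to S phase, had 5.63 and 4.85, then 4.42 and 4.34. CTIF, a factor for translation of such messages, had 4.62 and 4.07, then 6.19 and 6.32. The cleavage factor gene CSTF2 (82.4% of control in KO 1 and 81.9% in KO 2), UPF1 (83.8% and 86.0%), a helicase in histone message decay, and the cap-binding gene NCBP1 (87.2% and 89.6%) lay lower in both KO libraries.

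Histone chaperones and exchange factors, which hand histones to DNA, gave 0 of 29 past the threshold in limma-trend and 5 lower at an unadjusted p under 0.05 (background 7.22%). Both KO libraries lay below both controls in 16 (background 25.6%) and above in 2 (26.5%). The median log2 difference was -0.14, or -0.19 with KO 1 alone and -0.08 with KO 2 alone. HJURP, the chaperone of CENPA, had 83.9% of control in KO 1 and 79.5% in KO 2. SRCAP, which places H2A.Z, had 84.7% and 73.5%, SUPT16H, a subunit of FACT, 80.2% and 88.1%, and EP400 81.2% and 83.5%.

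S phase markers lay mostly below the control level as well, with smaller differences than the clustered genes. None of 30 passed in limma-trend (background 0.11%), 6 were lower at an unadjusted p under 0.05 (7.22%), and 27 had a difference below 0 (49.5%). In 19 of the 30 both KO libraries lay below both controls (background 25.6%), and in 1 above them (26.5%). Such an order was thus common outside the clustered genes too. Their median was -0.16, with -0.27 in KO 1 and -0.06 in KO 2, whereas the clustered medians were -0.52 and -0.68. The replicative helicase genes MCM2 (76.2% and 85.0% of control in KO 1 and KO 2) and MCM4 (74.1% and 85.3%), the ligase gene LIG1 (82.2% and 79.97%) and TOP2A (82.0% and 82.2%) had the smallest p-values. MKI67, a marker of cycling cells, had 82.8% and 81.1%. In bulk RNA, fewer cells in S phase and less histone RNA per cell cannot be told apart. Nor can less histone RNA and a smaller tailed share of it. The part of the S phase genes in the clustered result was not tested.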

How the data were processed

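Values were taken as FPKM per gene symbol as deposited by the authors; the tools named per the submitters' processing notes are Cuffnorm 2.2.1, TopHat2 2.0.13, SAMtools 0.1.19 and Bowtie2 2.2.3, with hg19 as the build. Libraries were poly(A)-selected (TruSeq stranded mRNA) per the labels' protocols. The sources used here do not give the annotation, strand use or scaling.

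Genes with at least 1 FPKM in at least 2 of 4 libraries (12701) were fitted as log2(FPKM + 1) with limma 3.58.1 (trend, group as sole term) in R 4.3.3. Benjamini-Hochberg adjustment ran over all of them with a threshold of 0.05, and differences are KO minus EV control. The fit was tested on simulated data. No read counts were used. Relative depth came from the commonest ratio between libraries among genes under 0.5 FPKM, and fragments were the smallest whole numbers up to 40 that gave all 4 values; multiples of them would do as well.

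Members, gene lists and tests were chosen with earlier results of these data known, so no test over members was made. Values per library are given for tested members at a mean of at least 5 FPKM or an unadjusted p under 0.05, and up to 4 genes per list by smallest p; other members were named after their values were seen. Symbols of all 91 genes matched RefSeq names (GRCh38.p14). Alternatives were pseudocounts of 0.1 and 0.5, no filter, a 5 FPKM filter, 2 scalings, no trend, a replicate block, leaving out each library, and no small RNA genes. Added after seeing the data were H3F3A with H3F3AP4 summed and medians without pseudogenes.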

Additional observations from a re-analysis of the deposited data

How the results depend on the processing

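No histone gene passed in any alternative that kept all 4 libraries (smallest limma adjusted p = 0.0783) or without either EV control. With a single KO library left, which is then assumed to vary like the controls, 9 of 25 passed without KO replicate 1 and 9 without KO replicate 2, where 17.5% and 13.2% of all tested genes did. HIST1H1C, HIST1H2BK, HIST1H3E and HIST3H2A (lower) and H1F0 and H1FX (higher) were among both.

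The clustered median of -0.51 was -0.78 and -0.63 with pseudocounts of 0.1 and 0.5, -0.31 without a filter (47 genes), -0.73 with the 5 FPKM filter (6 genes), -0.54 with quantile normalization and -0.48 without pseudogenes. It ranged from -0.68 to -0.52 with 1 library left out. The variant median stayed within its spread between replicates. The difference of the medians was -0.85, -0.69, -0.37 and -0.80 in the first 4 of these settings, and -0.73 to -0.57 with 1 library left out. The pseudocount and filter settings move the weight of low genes by construction.

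Of 15 clustered genes 10 kept their sign throughout, as did 5 of 10 variants. A gene whose groups do not overlap cannot change sign when 1 library is left out, so these counts largely restate that order. The share of all tested genes that kept their sign was not computed. Quantile normalization reversed H2AFJ (-0.0114), H2AFZ (-0.0368) and H3F3AP4 (-0.0528). With 1 library left out, the ranges were -0.048 to 0.147 for H2AFJ, -0.0193 to 0.149 for H2AFY2, -0.11 to 0.25 for H3F3B, -1.02 to 0.15 for HIST1H2AM, -1.18 to 0.15 for HIST1H2BN, -0.91 to 0.18 for HIST1H3H, -0.62 to 0.0338 for HIST1H4E and -0.30 to 0.29 for HIST2H2AC. The cause was not tested.

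Over all genes, 7 were higher and 7 lower. Counts became 3 and 3 without a filter, 3 higher without the trend, 4 lower with quantile normalization, and 0 and 0 without small RNA genes. They ranged from 6 to 1381 higher and 5 to 881 lower with 1 library left out. With the replicate block the counts were 4 higher and 8 lower, and no histone gene passed. Same-numbered libraries did not deviate together over the tested genes (correlation -0.00455). With 2 libraries per group, both numbers give this same value by construction. It does not show whether same-numbered libraries were prepared together.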
